A study of Homo sapiens with 4 samples.

Results

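The neuronal nicotinic acetylcholine receptor subunit genes are described here in the MYCN-amplified human neuroblastoma cell line SK-N-BE(2). The members were 10 genes taken by symbol (CHRNA2, CHRNA3, CHRNA4, CHRNA5, CHRNA6, CHRNA7, CHRNA9, CHRNB2, CHRNB3 and CHRNB4), and each matched 1 of the 64252 gene rows of the count table. RNA sequencing libraries came from cells carrying an shRNA against IRF2BP2 (2 libraries) or a scramble shRNA (2 libraries), and both groups are the same cell line with no other agent named. Whether the libraries of a group are from separate cultures is not stated, so p-values reflect library-to-library spread that could be technical. The labels name no hairpin sequence, so 1 hairpin cannot be told apart from several. Library totals lay between 30847699 and 34684651 counts. IRF2BP2, a transcriptional co-regulator, had 89.6 and 87.5 CPM (counts scaled by library size with a TMM factor for composition) in the IRF2BP2 shRNA libraries, against 243 and 238 CPM in the scramble libraries, so its level went with the labels.

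Nicotinic receptors are cation channels built of 5 subunits around a pore that opens when acetylcholine binds. In sympathetic ganglia and chromaffin cells, the relatives of neuroblastoma cells, fast transmission rests mainly on receptors that combine the alpha3 and beta4 subunits, to which alpha5 or beta2 can be added, while alpha7 can form a channel on its own. Alpha3 carries an acetylcholine binding face, beta subunits complete that binding site, and alpha5 is an accessory subunit that needs an alpha and a beta partner to make a channel.

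Of the 10 subunit genes, 5 were detected at levels that could be tested, and 4 of these were lower in the IRF2BP2 shRNA libraries. CHRNA7, CHRNA3 and CHRNB2 fell 2.57-fold, 2.18-fold and 2.02-fold, and CHRNB4 fell 1.39-fold. CHRNA5 lay at 47.5 ± 1.30 CPM in IRF2BP2 shRNA cells and 48.9 ± 5.19 CPM in scramble cells (SD, n = 2 each). The transcripts of the 10 genes summed to 247 and 232 CPM in the IRF2BP2 shRNA libraries and 450 and 434 CPM in the scramble libraries, so that the IRF2BP2 shRNA mean was 54.2% of the scramble mean. A gene is said to be called, or to have risen or fallen, where its edgeR p-value adjusted over all genes tested was under 0.05. Over all 19093 genes tested, 42.0% were called, with 20.6% higher and 21.4% lower, and 51.0% of the 13734 protein-coding genes among them were called, so a call by itself is common in this comparison. In bulk RNA, fewer cells that hold a transcript and less of it per cell cannot be told apart.

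CHRNA3, the ligand-binding alpha subunit of the ganglionic receptor (ENSG00000080644), occupies bases 78593052 to 78621295 of chromosome 15, minus strand, in GENCODE release 29 on GRCh38. It had 120 and 111 CPM in the IRF2BP2 shRNA libraries, against 258 and 247 CPM in the scramble libraries. Both IRF2BP2 shRNA libraries were below both scramble libraries, by more than the gap within either pair. The log2 fold change was -1.13 with a standard error of 0.05 (edgeR quasi-likelihood adjusted p = 1.16e-08).

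CHRNB4, the beta subunit that pairs with alpha3 in ganglia (ENSG00000117971, chromosome 15, 78624119 to 78727754, minus strand), had 34.5 and 32.9 CPM in the IRF2BP2 shRNA libraries, against 47.0 and 46.8 CPM in the scramble libraries. The groups did not overlap. The log2 fold change was -0.48 with a standard error of 0.07 (edgeR adjusted p = 1.92e-04).

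CHRNA5, the accessory subunit (ENSG00000169684, chromosome 15, 78565520 to 78595269, plus strand), had 48.5 and 46.6 CPM in the IRF2BP2 shRNA libraries, against 52.6 and 45.3 CPM in the scramble libraries. Both IRF2BP2 shRNA values lay between the scramble values. The log2 fold change of -0.04 was not called (edgeR adjusted p = 0.705), and its 95% interval ran from -0.22 to 0.13, which does not reach the change of CHRNB4. The labels name a TruSeq RNA kit with no mention of a stranded version. The CHRNA5 exons share 198 bases with CHRNA3 and 832 bases with the antisense gene ENSG00000261762, which is 5.47% and 23.0% of the CHRNA5 exon length. How the counting assigned reads in those stretches, and whether it used strand, is not given in the sources used here.

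CHRNA7 (ENSG00000175344, chromosome 15, 31923438 to 32173018, plus strand) encodes the subunit of homomeric receptors with high calcium permeability. It had 14.5 and 14.9 CPM in the IRF2BP2 shRNA libraries, against 36.1 and 39.5 CPM in the scramble libraries, with no overlap between the groups. The log2 fold change was -1.36 with a standard error of 0.09 (edgeR adjusted p = 2.88e-07). CHRFAM7A, a human-specific fusion gene that carries a near-identical copy of several CHRNA7 exons, had 5.47 and 4.50 CPM in the IRF2BP2 shRNA libraries, against 11.5 CPM in each scramble library. Reads from the copied exons can be split between both genes, so the CHRNA7 and CHRFAM7A values are uncertain. The ratio of CHRNA7 to CHRFAM7A counts was 2.66 and 3.31 in the IRF2BP2 shRNA libraries, against 3.13 and 3.44 in the scramble libraries, and the groups overlapped.

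CHRNB2, the beta subunit best known from brain receptors with alpha4 (ENSG00000160716, chromosome 1, 154567781 to 154580026, plus strand), had 28.9 and 26.4 CPM in the IRF2BP2 shRNA libraries, against 56.0 and 55.4 CPM in the scramble libraries. The IRF2BP2 shRNA values were again the lower pair. The log2 fold change was -1.01 with a standard error of 0.07 (edgeR adjusted p = 8.23e-07).

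**Figure D1:**
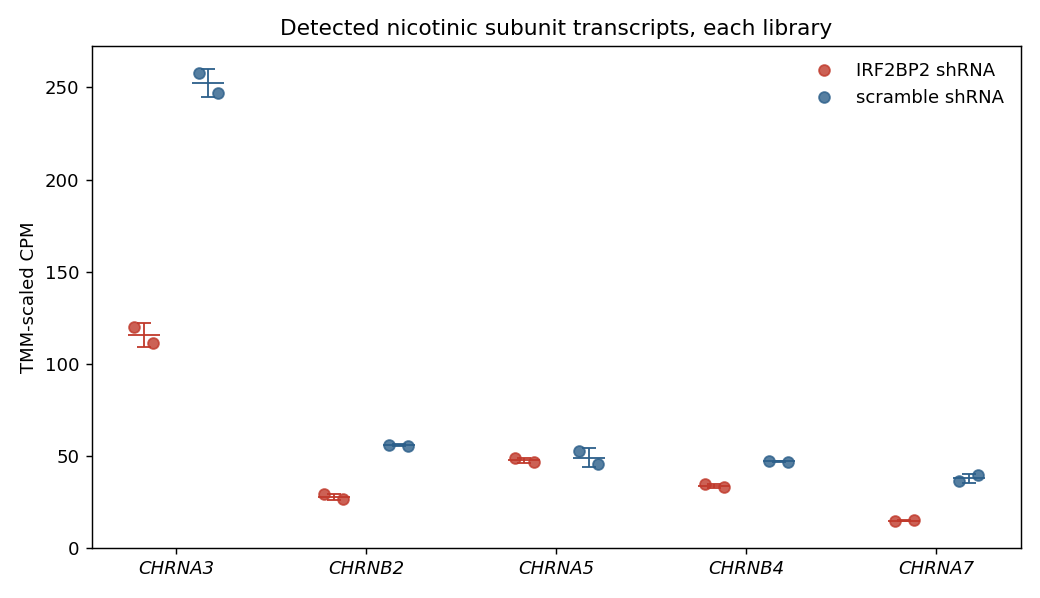
Each point is the TMM-scaled CPM of 1 library for the 5 detected subunit genes, with IRF2BP2 shRNA in red and scramble shRNA in blue; dashes and bars are the mean and SD of 2 libraries. The red points lie below the blue points for CHRNA3 (116 against 253 CPM), CHRNB2, CHRNB4 and CHRNA7, and the points of CHRNA5 overlap.

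The other 5 subunit genes were at the limit of detection. CHRNA2, whose product pairs with beta subunits in brain, and CHRNB3, an accessory beta subunit, had no count in any library, and a count of 0 allows up to 3 counts, or between 0.0865 and 0.0973 CPM per library. CHRNA4, the main partner of beta2 in brain, had 2 and 0 counts in the IRF2BP2 shRNA libraries and 0 in both scramble libraries. CHRNA6, a subunit of catecholamine neurons of the brain, had 0 and 2 counts in the IRF2BP2 shRNA libraries and 0 in both scramble libraries. CHRNA9, known from cochlear hair cells, had 0 and 2 counts in the IRF2BP2 shRNA libraries, against 5 and 0 counts in the scramble libraries. These 5 did not pass the filter on low counts, and a difference between groups was not detectable at this depth. The 5 tested members had at least 465 counts in every library, so none of them passed the filter through 1 group alone.

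Levels of different genes were compared per length, as CPM per kilobase of annotated exon. CHRNA3 led in both groups, with 24.3 ± 1.29 CPM per kb in IRF2BP2 shRNA cells and 53.0 ± 1.63 in scramble cells (SD, n = 2 each). CHRNA5 was next, at 13.1 ± 0.360 CPM per kb in IRF2BP2 shRNA cells and 13.5 ± 1.43 in scramble cells. CHRNB4 followed with 6.78 ± 0.228 CPM per kb in IRF2BP2 shRNA cells and 9.43 ± 0.0353 in scramble cells. CHRNB2 stood at 4.69 ± 0.297 CPM per kb in IRF2BP2 shRNA cells and 9.46 ± 0.0803 in scramble cells, close to CHRNB4 in scramble cells and below it in IRF2BP2 shRNA cells. CHRNA7 was lowest, at 0.701 ± 0.0120 CPM per kb in IRF2BP2 shRNA cells and 1.80 ± 0.116 in scramble cells, where its annotated exons sum to 20978 bases. Shares of the summed level of the 10 genes were also taken with the longest transcript as the length. CHRNB4 then took 18.7% and CHRNA5 19.1% in IRF2BP2 shRNA cells, so CHRNA5 stayed just ahead there. In scramble cells CHRNB4 took 14.3% and CHRNA5 10.8%, so the order of this pair in scramble cells hangs on the length used. So does that of CHRNB4 and CHRNB2 in scramble cells, where CHRNB4 took 14.3% and CHRNB2 7.62% with the longest transcript as the length, against 10.6% and 12.6% with no length scaling.

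The make-up of the subunit transcripts differed between the groups as well as their sum. CHRNA3 made up 49.3% and 48.6% of the summed CPM per kb in the IRF2BP2 shRNA libraries, against 60.6% and 61.0% in the scramble libraries. CHRNA5 made up 26.2% and 26.7% in the IRF2BP2 shRNA libraries, against 16.2% and 14.7% in the scramble libraries. CHRNB4 made up 13.6% and 13.8% in the IRF2BP2 shRNA libraries, against 10.6% and 11.1% in the scramble libraries. CHRNB2 had 9.46% in IRF2BP2 shRNA cells and 10.8% in scramble cells, and CHRNA7 had 1.42% in IRF2BP2 shRNA cells and 2.07% in scramble cells. The shares add to a whole, and the CHRNA5 share was higher with the IRF2BP2 shRNA while the CHRNA5 level itself was not called.

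**Figure D2:**
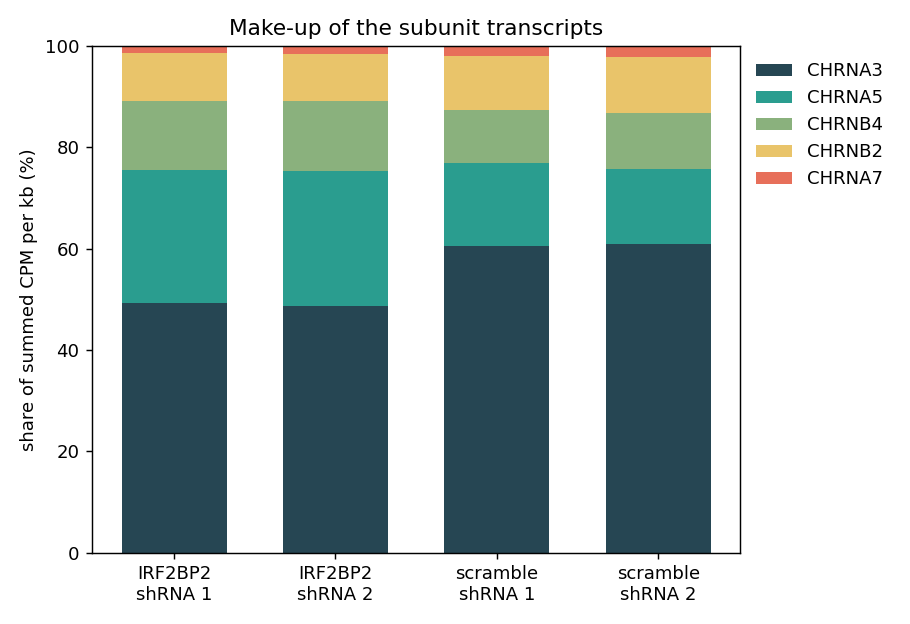
Stacked bars give the share, in percent, of each of the 5 detected subunit genes in the summed CPM per kb of a library, with the IRF2BP2 shRNA libraries on the left and the scramble libraries on the right. The CHRNA3 part is 49.0% on average in IRF2BP2 shRNA libraries and 60.8% in scramble libraries, and the CHRNA5 part is 26.5% in IRF2BP2 shRNA libraries and 15.5% in scramble libraries.

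Ratios of raw counts within a library do not depend on scaling. Each ratio does depend on the lengths of both genes, but annotated length cancels when a ratio is compared between groups. There were 2.48 and 2.39 CHRNA3 counts per CHRNA5 count in the IRF2BP2 shRNA libraries, against 4.91 and 5.46 in the scramble libraries. CHRNA3 per CHRNB4 was 3.48 and 3.38 in the IRF2BP2 shRNA libraries, against 5.49 and 5.28 in the scramble libraries. CHRNB4 per CHRNB2 was 1.20 and 1.25 in the IRF2BP2 shRNA libraries, against 0.839 and 0.845 in the scramble libraries. CHRNA3 per CHRNB2 moved least, with 4.16 and 4.22 in the IRF2BP2 shRNA libraries and 4.61 and 4.46 in the scramble libraries. Of 7 ratios computed, the groups overlapped in that of CHRNA7 to CHRFAM7A alone. In each of the 4 given here they did not overlap, and the two-sided exact permutation p was 0.333. That is the smallest that 2 against 2 libraries can give, so this test cannot reach 0.05. The ratios share genes and are not separate observations. How often ratios of other gene pairs keep the groups apart was not computed, so the number without overlap is description only.

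**Figure D3:**
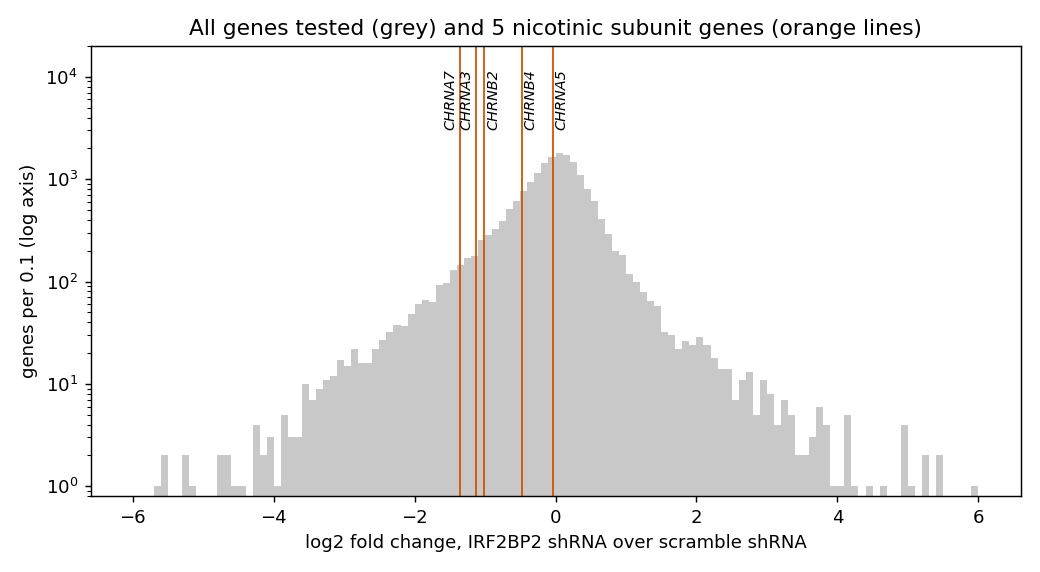
Grey bars count all genes tested by log2 fold change (IRF2BP2 shRNA over scramble shRNA) in steps of 0.1 on a log axis, and orange lines mark the 5 detected subunit genes. CHRNA7, CHRNA3 and CHRNB2 lie on the lower flank between -1.36 and -1.01, CHRNB4 lies at -0.48, and CHRNA5 lies near the median of all genes, which was -0.01.

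The falls of the subunit genes lay well inside the range of falls in this comparison. Among the 4086 genes called lower, 20.2% had a larger fall than CHRNA7, 26.8% a larger fall than CHRNA3, 31.2% a larger fall than CHRNB2 and 62.6% a larger fall than CHRNB4. Of 13733 other protein-coding genes tested, the 5 whose centred log2 CPM over the 4 libraries lay closest to CHRNA3 were RAG1 (Euclidean distance 0.0422), the sulfatase gene ARSD (0.0445), the kinesin adaptor gene FEZ1 (0.0536), the actin regulator gene PHACTR1 (0.0560) and the copper transporter gene ATP7A (0.0587). With 4 libraries in 2 groups, this likeness is mostly the size of the change.

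The CHRNA5, CHRNA3 and CHRNB4 genes adjoin one another at 15q25, and their GENCODE gene bodies span 162 kb in all. The RefSeq start of CHRNB4 used below lies inside its GENCODE gene body, so this span hangs on the annotation. The ends of CHRNA5 and CHRNA3 overlap tail to tail by 2218 bases of gene body, and 2823 bases separate CHRNA3 from CHRNB4. The 14 other protein-coding genes within 500 kb gave 12 that were tested, of which 1 rose and 3 fell, while 8 did not pass. That is 33.3% called, below the 42.0% of all genes tested and the 51.0% of protein-coding genes tested. The median log2 fold change of these 12 neighbours was -0.12. PSMA4, a proteasome subunit gene next to CHRNA5, had 156 and 152 CPM in the IRF2BP2 shRNA libraries, against 152 and 148 CPM in the scramble libraries, and was not called (edgeR adjusted p = 0.424). IREB2, which encodes an iron regulatory protein, had 170 and 164 CPM in the IRF2BP2 shRNA libraries, against 176 and 184 CPM in the scramble libraries (log2 fold change -0.11, edgeR adjusted p = 0.0631, called lower in 3 of 11 alternative settings).

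On the other side, ADAMTS7, a secreted metalloproteinase gene, had 99.7 and 104 CPM in the IRF2BP2 shRNA libraries, against 130 and 137 CPM in the scramble libraries, which is -0.39 as a log2 fold change (edgeR adjusted p = 2.27e-05). MORF4L1, a chromatin protein gene beyond it, differed by 0.09 on the log2 scale (edgeR adjusted p = 0.0646). CRABP1, CIB2 and HYKK lie back on the CHRNA5 side, with HYKK between IREB2 and PSMA4 and the others farther out than IREB2. CRABP1, which binds retinoic acid, rose to 37.8 and 39.7 CPM in the IRF2BP2 shRNA libraries, against 21.9 and 22.0 CPM in the scramble libraries. CIB2, a calcium-binding protein gene, fell by 0.44 and HYKK, a hydroxylysine kinase gene, by 1.42 on the log2 scale, and HYKK had only 15 and 22 counts in the IRF2BP2 shRNA libraries, against 55 and 47 counts in the scramble libraries. Without replicate 1 of the IRF2BP2 shRNA group HYKK was no longer called (edgeR adjusted p = 0.0636), nor was it by DESeq2 (adjusted p = 0.0552), and CIB2 was not without replicate 2 of that group (edgeR adjusted p = 0.0719). IDH3A, DNAJA4, SKIC8, ACSBG1 and CTSH were not called, with edgeR adjusted p between 0.130 and 0.943. SH2D7 and RASGRF1 were not tested.

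**Figure D4:**
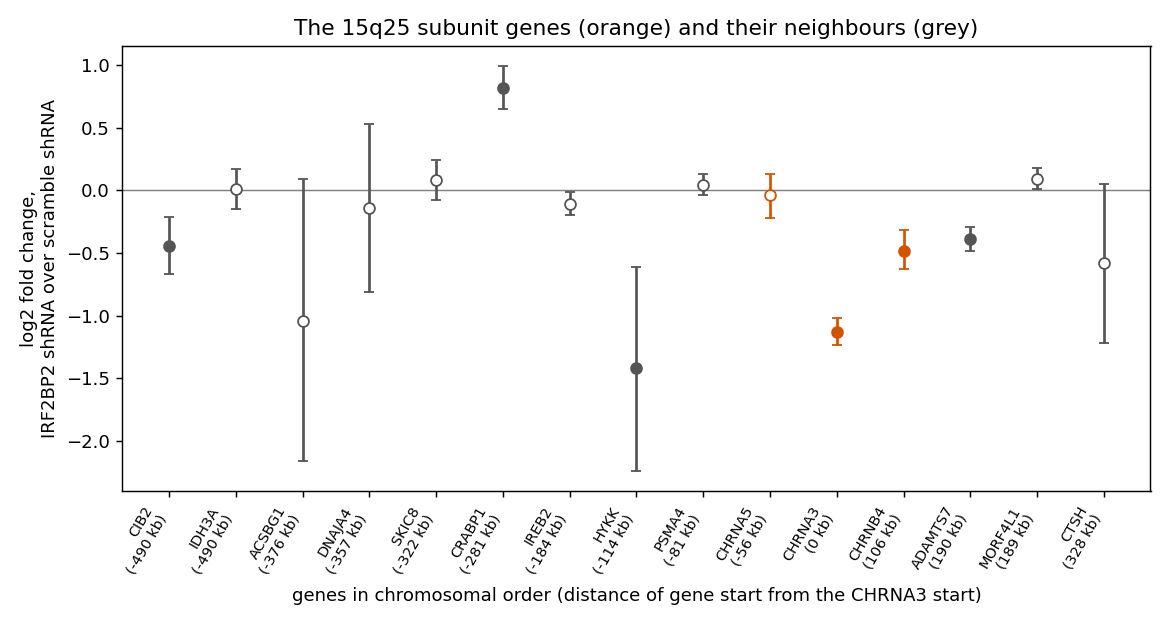
Points are log2 fold changes (IRF2BP2 shRNA over scramble shRNA) of the tested protein-coding genes around the 15q25 subunit genes in chromosomal order, with 95% intervals; filled points were called, open points were not, and orange marks subunit genes. CHRNA3 (-1.13) and CHRNB4 (-0.48) fell between CHRNA5 (-0.04) on one side and ADAMTS7 (-0.39) on the other.

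The 250 bases before the RefSeq start of the 4 subunit genes that fell are shown because these genes moved in 1 direction while lying at 3 places in the genome. The sequences are from RefSeq (GRCh38.p14), read 5′ to 3′ on the strand of the gene. For CHRNA3, CHRNB4 and CHRNA7 the window lies inside the GENCODE gene body given above, because that body begins farther upstream than the RefSeq start. Only the CHRNB2 window lies before the GENCODE gene body. Capitals mark matches to the E-box CANNTG, the kind of sequence that basic helix-loop-helix factors such as HAND2 bind, and to the GC box GGGCGG or its reverse complement CCGCCC, the kind that SP1 and SP3 bind. They lie at chr15:78620997-78621246 (minus), chr15:78641211-78641460 (minus), chr15:32030233-32030482 (plus) and chr1:154567528-154567777 (plus), in the order shown.
CHRNA3: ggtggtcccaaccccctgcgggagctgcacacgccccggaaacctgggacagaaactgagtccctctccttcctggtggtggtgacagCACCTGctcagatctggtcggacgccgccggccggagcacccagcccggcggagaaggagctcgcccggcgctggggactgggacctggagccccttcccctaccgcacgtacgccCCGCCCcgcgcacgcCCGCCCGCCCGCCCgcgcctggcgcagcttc
CHRNB4: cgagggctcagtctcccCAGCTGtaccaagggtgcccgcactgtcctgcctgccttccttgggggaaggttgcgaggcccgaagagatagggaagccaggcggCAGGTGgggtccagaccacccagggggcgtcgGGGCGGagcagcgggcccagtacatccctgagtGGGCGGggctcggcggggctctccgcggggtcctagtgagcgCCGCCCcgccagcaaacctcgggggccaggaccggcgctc
CHRNA7: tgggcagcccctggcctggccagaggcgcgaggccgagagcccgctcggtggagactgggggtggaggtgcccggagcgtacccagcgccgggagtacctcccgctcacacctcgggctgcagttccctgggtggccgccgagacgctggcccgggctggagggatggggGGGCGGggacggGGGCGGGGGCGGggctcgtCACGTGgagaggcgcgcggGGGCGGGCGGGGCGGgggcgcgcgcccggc
CHRNB2: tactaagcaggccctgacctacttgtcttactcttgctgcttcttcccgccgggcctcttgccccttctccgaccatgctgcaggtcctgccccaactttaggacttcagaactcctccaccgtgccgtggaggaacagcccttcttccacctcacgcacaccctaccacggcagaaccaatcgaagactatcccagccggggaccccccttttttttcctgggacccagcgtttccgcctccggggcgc

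CHRNA3 held 1 E-box, CACCTG, whose first base lies 162 bases before the start, and 4 GC boxes between 46 and 23 bases before it, 3 of which run into one another. CHRNB4 held 2 E-boxes, CAGCTG at 233 and CAGGTG at 147 bases before the start, and 3 GC boxes at 115, 82 and 40 bases. CHRNA7 held 1 E-box, CACGTG, at 49 bases and 6 GC boxes between 80 and 21 bases before the start, some of them overlapping. RefSeq gives a second CHRNA7 start, from which the same E-box lies 81 bases upstream and the GC boxes between 112 and 53 bases upstream. CHRNB2 held neither motif in this window. Among 27305 RefSeq promoters of the same 250 bases, 62.2% held CANNTG, 13.8% held CAGCTG, which is 1 form of CANNTG, and 42.3% held GGGCGG, on either strand. The EGR element GCGTGGGCG (0.710% of promoters) and the homeodomain core TAATTA (4.49%) were in none of the 4 windows. A match is a run of letters only. RefSeq promoters were found for 5 of the 10 members, the fifth being CHRNA9, which was not tested. Its window held 1 E-box, CAACTG at 143 bases before the start, and no GC box. CHRNA5, the tested member that was not called, had no RefSeq promoter to set beside those of the genes that fell.

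Genes related to the subunits were taken from 7 lists, which are not all of 1 pathway. They include general regulators and channels of the same family with other ligands beside the genes of acetylcholine signalling. The lists held 87 genes, of which 86 were in the table and 52 were tested. Of these 52, 8 rose and 26 fell, while 18 did not pass. That is 65.4% called at a median of -0.41 (log2), beside 42.0% called and a median of -0.01 over all genes tested, and 51.0% called and a median of 0.01 over the 13734 protein-coding genes tested. The lists were chosen with earlier results of these data known. The shares therefore cannot tell whether genes related to the subunits were called or lowered more often than others.

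Among 15 transcription factor and regulator genes tested for which a role at subunit genes or in sympathetic neurons is known, 2 rose, 9 fell and 4 were not called. INSM1, a zinc finger factor of neuroendocrine cells, had 0.531 and 0.874 CPM in the IRF2BP2 shRNA libraries, against 6.45 and 6.64 CPM in the scramble libraries (log2 fold change -3.21, edgeR adjusted p = 3.12e-06). Both IRF2BP2 shRNA libraries were below both scramble libraries. PHOX2A, a homeobox factor of autonomic neurons, fell by 0.79 on the log2 scale. HAND2 fell by 0.40, with 867 exon bases shared with its antisense partner HAND2-AS1, and SOX11 fell by 0.39 and POU2F1 by 0.34. SOX4, of the same family as SOX11, rose by 0.32 on the log2 scale (edgeR adjusted p = 0.00280). EGR1, an immediate early factor, rose to 86.8 and 86.2 CPM in the IRF2BP2 shRNA libraries, against 22.9 and 19.9 CPM in the scramble libraries. GATA3 (log2 fold change 0.06), SP3 (-0.02), POU4F1 (0.04) and NRG1 (-0.19) were not called. SP1 fell by 0.11 on the log2 scale (edgeR adjusted p = 0.0420).

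Of 8 assembly and prototoxin genes tested, 2 rose, 3 fell and 3 were not called. TMEM35A, the chaperone NACHO that alpha7 and other neuronal receptors need for assembly, had 4.50 and 5.06 CPM in the IRF2BP2 shRNA libraries, against 10.5 and 8.39 CPM in the scramble libraries (log2 fold change -0.99, edgeR adjusted p = 8.26e-04). VSNL1, a calcium sensor reported to act on receptor surface levels, fell by 0.95, and LYPD6, a prototoxin of the Ly6 family, by 1.44 on the log2 scale. CANX, the general chaperone calnexin, rose by 0.20 and LY6E by 0.32. RIC3, another receptor chaperone, had 1.72 CPM in IRF2BP2 shRNA cells and 2.92 CPM in scramble cells on average and was not called (edgeR adjusted p = 0.0836).

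Of 7 genes of acetylcholine supply and breakdown tested, 1 rose, 3 fell and 3 were not called. SLC18A3, the vesicular acetylcholine transporter, had 4.81 and 4.18 CPM in the IRF2BP2 shRNA libraries, against 10.2 and 10.8 CPM in the scramble libraries (log2 fold change -1.23, edgeR adjusted p = 8.82e-05). COLQ, the collagen tail of acetylcholinesterase, fell by 1.56, and it shares 462 exon bases with EAF1 on the other strand. SLC44A1, a choline transporter, fell by 0.40 and CHKA, choline kinase, rose by 0.21. CHAT, the enzyme that makes acetylcholine, had 0 and 5 counts in the IRF2BP2 shRNA libraries, against 9 and 4 counts in the scramble libraries, and was not tested. ACHE had 0.515 CPM in IRF2BP2 shRNA cells and 1.00 CPM in scramble cells on average and was not called (edgeR adjusted p = 0.0874).

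Of 4 muscarinic receptor genes tested, which encode the G protein-coupled acetylcholine receptors, 3 fell and 1 was not called. CHRM2 had 10.5 and 10.7 CPM in the IRF2BP2 shRNA libraries, against 21.8 and 23.3 CPM in the scramble libraries (log2 fold change -1.09, edgeR adjusted p = 6.39e-06). CHRM1 fell by 1.64 and CHRM3 by 1.33 on the log2 scale, and CHRM4 differed by -1.20 without passing the test (edgeR adjusted p = 0.163). The size of the fall in CHRM2 was within the range of CHRNA7, CHRNA3 and CHRNB2.

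Of the 7 other nicotinic genes, 4 were tested, with CHRFAM7A lower and CHRNA10, CHRNB1 and CHRNG not called. CHRNB1, a muscle subunit, had 1.44 CPM in IRF2BP2 shRNA cells and 1.77 CPM in scramble cells on average. CHRNA1, the muscle alpha subunit, had no count.

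Of 8 clustering and scaffold genes tested, 2 rose, 4 fell and 2 were not called. DLG3, a scaffold of postsynaptic sites, fell by 1.24, AGRN, which clusters muscle receptors, by 0.86 and PICK1 by 0.41 on the log2 scale. ERBIN rose by 0.34 and APC by 0.18. Of 23 genes for other channels of the same pentameric family, 6 were tested, with 1 higher, 3 lower and 2 not called. HTR3A, the serotonin-gated channel subunit, had 16 and 2 counts in the IRF2BP2 shRNA libraries, against 144 and 136 counts in the scramble libraries. GABRQ fell by 1.38, and GABRE, like it a GABA-A receptor subunit, had 42 and 40 counts in the IRF2BP2 shRNA libraries, against 6 and 0 counts in the scramble libraries.

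**Figure D5:**
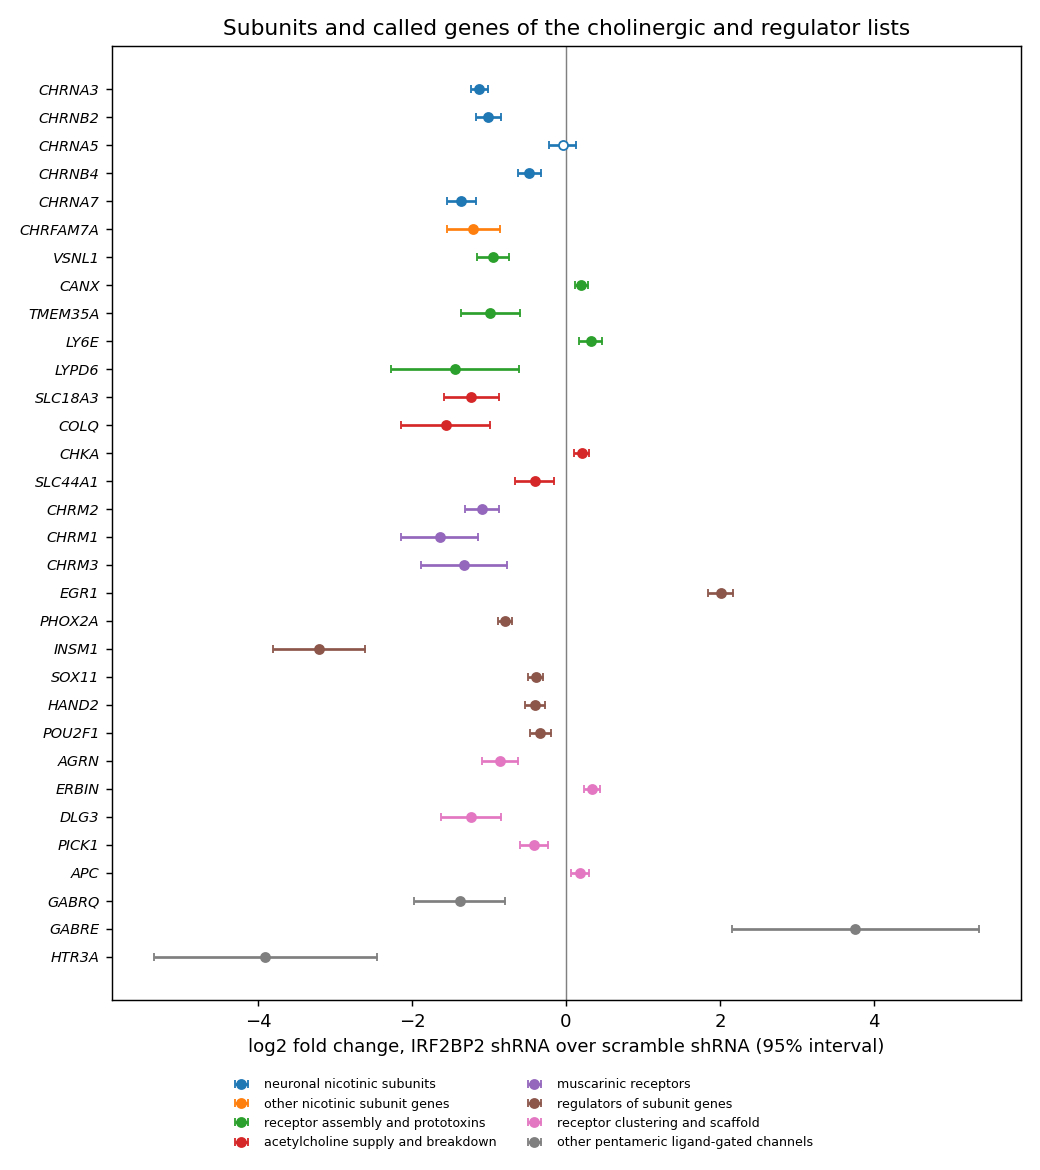
Log2 fold changes (IRF2BP2 shRNA over scramble shRNA) with 95% intervals are shown for the 5 detected subunit genes and called genes of the 7 lists, coloured by list; the open point, CHRNA5, was not called. Most intervals lie left of 0, with HTR3A (-3.91) and INSM1 (-3.21) farthest from it, and GABRE (3.76) and EGR1 (2.01) lie farthest on the other side.

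The labelled cell type was checked against its markers. All 10 adrenergic neuroblastoma markers were above 1 CPM in both groups, with 8 lower, 1 higher (MYCN) and 1 not called (GATA3). Calls were made for 42.0% of all genes tested and 51.0% of protein-coding genes tested. The log2 fold changes of the 8 ran from -5.20 (DBH) to -0.40 (HAND2). DBH had 1.38 and 2.06 CPM in the IRF2BP2 shRNA libraries, against 58.5 and 68.2 CPM in the scramble libraries. CHGA fell 5.67-fold and ALK 4.38-fold, while MYCN rose by 0.39 on the log2 scale. Fibroblast or mesenchymal markers summed to 270 and 271 CPM in the IRF2BP2 shRNA libraries, against 319 and 303 CPM in the scramble libraries, with 2 of 7 higher (COL1A1, COL3A1), 3 lower (DCN, LUM, PDGFRB), and COL1A2 and PRRX1 at or near 0. Schwann cell markers summed to 2.88 and 2.59 CPM with the IRF2BP2 shRNA and 1.99 and 1.98 CPM with scramble, with 1 of 6 higher, SOX10 at 1 count in all and FOXD3 at 0. Immune markers summed to 3.72 and 3.06 CPM with the IRF2BP2 shRNA and 4.38 and 6.96 CPM with scramble, with 1 of 5 lower (PTPRC) and CD3E and LYZ at 0. Endothelial markers summed to between 2.12 and 2.38 CPM with the IRF2BP2 shRNA and between 2.34 and 2.68 CPM with scramble, with PECAM1 at 0, and muscle markers to between 2.56 and 3.18 CPM with the IRF2BP2 shRNA and between 2.11 and 2.27 CPM with scramble, with none of either called. The part of these markers in the subunit results was not tested.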

How the data were processed

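The deposited values are raw counts per gene, 1 column per library, and the authors did not pool libraries. Reads were aligned with HISAT2 2.2.0 to hg38, per the submitters' processing notes, and libraries were made with the TruSeq RNA kit from TRIzol RNA, per the labels' protocols. The sources used here name neither the read counter nor its annotation. The control columns carry the name NC, left unexplained by the labels, and were taken as scramble shRNA, the only other treatment labelled.

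The edgeR package (version 4.0.16, R version 4.3.3) tested the counts (filterByExpr by group, TMM scaling, robust quasi-likelihood F-test, two-sided, Benjamini-Hochberg over 19093 genes, threshold 0.05). The standard error is the log2 fold change over the root of F. Replicates differed beyond sampling noise (chi-square over its degrees of freedom 5.26 for IRF2BP2 shRNA and 7.01 for scramble), so none was a copy. The test was run on simulated counts with 200 genes changed. That is far fewer than were called here, so the simulation does not show how the test behaves in a comparison this broad. Symbols, exon lengths and coordinates came from a gene name table and GENCODE release 29. The zero limit of 3 counts covers counting error only, and 95% intervals use the fitted spread. limma 3.58.1 and DESeq2 1.42.0 served as alternatives.

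All members are named whatever their result. Partner genes named are the called ones averaging 1 CPM or more in either group, up to 8 per list by p. SOX4, SP1 and a few uncalled or untested genes were added after their values were seen. A few genes meeting this rule are left out of the text and the plot. The members and lists were chosen with earlier results of these data known.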

Additional observations from a re-analysis of the deposited data

How the results depend on the processing

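The counts of calls and the log2 fold changes of the 5 tested subunit genes were recomputed with 2 other scalings, DESeq2, limma voom, no filter on low counts, a floor of 10 CPM on group means, a replicate block, and without each library, 11 settings in all; the nearest genes, marker sums and motif matches were not recomputed. In each of them 4 subunit genes were lower and 0 higher, and the log2 fold changes ran from -1.42 to -1.29 for CHRNA7, -1.18 to -1.07 for CHRNA3, -1.07 to -0.94 for CHRNB2 and -0.52 to -0.44 for CHRNB4, with adjusted p of at most 0.00137. CHRNA5 was called in none, with log2 fold changes from -0.14 to 0.08; without scramble replicate 1 its sign turned (0.08, edgeR adjusted p = 0.482). The partner genes lower were 17 in place of 26 with that floor, where fewer genes are tested. The 15q25 neighbours higher were 2 in place of 1 with the RLE scaling, DESeq2 and limma voom, the added gene being MORF4L1. The difference in the CHRNA3 share, IRF2BP2 shRNA minus scramble, was -11.8 percentage points, -10.7 with the longest transcript as length and -8.84 with no length scaling, and between -12.2 and -11.5 without single libraries, a setting chosen after seeing the data. The replicate numbers are shared by both groups, but nothing says they pair the libraries. Same-numbered libraries had a correlation of deviations of 0.25 over 2 pairs, and with the replicate block 3950 genes were higher and 3950 lower, against 3930 and 4086 without it, and the 4 subunit calls held. Counts under about 10 per library, as for CHRNA4, CHRNA6 and CHRNA9, are too few to show a difference at this depth.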
